A study of Mus musculus with 9 samples.

Results

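The 4 mouse miRNA hairpins mmu-mir-320, mmu-mir-484, mmu-mir-877 and mmu-mir-451a, which skip a step of the usual miRNA processing, were followed in B16F1 melanoma cells. Their members were all entries of the count table that carry 1 of these 4 hairpin names and the mature names that belong to them, 102 of 6414 entries. An entry is either a short sequence read from the hairpin, called a tag here, or a mature miRNA name. The entries were summed by hairpin and arm, with a tag starting before base 35 of the hairpin placed on the 5p arm and any other on the 3p arm. This gave 5 arms with a count, of 742 arms or names with a count in the table: miR-320-3p, miR-484-5p, miR-877-5p, miR-877-3p and miR-451a-5p. The 5p arm of miR-320 had no count in any library.

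Most miRNAs are cut out of a long transcript by the Drosha/DGCR8 complex in the nucleus and then trimmed by Dicer in the cytoplasm. miR-320 comes from a short hairpin whose 5′ end is the capped start of its transcript, so Drosha is not needed, and miR-484 likewise comes from a short hairpin that does not need DGCR8. miR-877 is a mirtron, a hairpin released when an intron is spliced and debranched. miR-451a is cut by Drosha but is too short for Dicer, and its 5p strand is sliced by Ago2 and then trimmed; it is known from the red blood cell lineage, where it is made together with miR-144.

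B16F1 is an established melanoma line from C57BL/6J mouse skin. The 9 small RNA libraries comprised 3 of unexposed control cells, 3 of cells exposed to 5.0 mM L-Tyr (L-tyrosine, the substrate of melanin synthesis) and 3 of cells exposed to 2.5 µg/mL BrdU (bromodeoxyuridine, a thymidine analogue). All groups had 72 h of culture, and the question was whether either exposure changed the miRNAs of these cells. The study's methods speak of 3 independent replicates unless stated otherwise, and the labels do not say whether these libraries came from separate cultures, so p-values measure the spread between these samples. The summed counts per library ran from 198810 to 424122 in control cells, from 144452 to 238245 with L-Tyr and from 171362 to 384486 with BrdU. BrdU replicate 3 stood apart: miR-143-3p, abundant in smooth muscle and fibroblasts, took 19.4% of its counts and at most 0.732% in any other library. The melanocyte markers miR-211 and miR-204 summed to between 6955 and 26911 CPM (counts scaled to a common library size) over the libraries, and to between 6955 and 7570.4 CPM in the 3 BrdU libraries.

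The counted reads were short, although the study's methods give a range of aligned reads that goes well past 20 nt, and the cause of this difference was not tested. Tags were 13 to 20 nt long, and of 1134 mature names whose RefSeq sequence has 22 nt or more, 0 had a count. Mature names of 20 nt or less had a count in 23 of 137 cases, and those of 21 nt in 27 of 352, with 483 counts together. The mature miR-484, miR-451a and miR-877-3p of RefSeq have 22 nt, so their full-length molecules were not among these counts and all values below describe shorter reads from the same arms. miR-877-5p, with 20 nt, was the 1 mature name of the 6 belonging to these hairpins that had a count. It held 211 of the 415 counts of its arm, 50.8%.

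The mature sequences matched in RefSeq (GRCm38.p6) are shown first because they set where each molecule should begin. Capitals mark the seed, bases 2 to 8, which pairs with target mRNAs.
miR-484: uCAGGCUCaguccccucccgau
miR-877-5p: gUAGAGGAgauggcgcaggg
miR-877-3p: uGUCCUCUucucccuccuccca
miR-451a: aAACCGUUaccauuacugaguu
None of these 4 seeds was shared with another of the 1679 RefSeq mouse mature miRNAs, or among the 4. miR-320 had no match in that table.

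The commonest tag of each arm, as deposited, is shown with its own bases 2 to 8 in capitals, so that its start can be set against the mature miRNA.
miR-320-3p tag: aAGCTGGGttgagagggcga
miR-484-5p tag: aGGCTCAGtcccctcccgat
miR-877-5p tag: aGAGGAGAtggcgcagggga
miR-877-3p tag: tCCTCTTCtccctcctccca
miR-451a-5p tag: aAACCGTTaccattactgag
The miR-451a-5p tag began at the first base of its mature miRNA. The miR-484-5p, miR-877-5p and miR-877-3p tags began 2 bases inside it, so that their bases 2 to 8 were not those of the RefSeq seed. The miR-877-5p tag does not stand for its arm: it had 85 counts, 66 of them in L-Tyr replicate 3. The mature name of that arm had 211 counts, and 68.7% of the arm began at the first base of the mature miRNA.

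In the mm9 genome (NCBIM37), Mir320 lay on chr14:70843317-70843398, plus strand, outside any annotated gene and 38 bases from Polr3d, a subunit gene of RNA polymerase III on the opposite strand. Mir484 lay on chr16:14159719-14159785, plus strand, outside any annotated gene. Its nearest gene was 4921513D23Rik, 351 bases away on the opposite strand, and it lay 3582 bases upstream of Nde1, a gene of the mitotic spindle. Mir451 lay on chr11:77886672-77886743, plus strand, 99 bases downstream of Mir144. Mir877 lay on chr17:36097675-36097759, minus strand, and filled an intron of Abcf1, a gene of translation initiation, from the base after one exon to the base before the next.

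Both hairpins whose shape carries the unusual route are shown from NCBIM37, with the RefSeq mature miRNAs in capitals.
Mir877: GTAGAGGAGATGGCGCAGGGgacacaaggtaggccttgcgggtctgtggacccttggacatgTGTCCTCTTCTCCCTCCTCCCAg
Mir451: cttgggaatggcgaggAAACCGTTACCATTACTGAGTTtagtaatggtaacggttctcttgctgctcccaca
The 85 bases of Mir877 begin with the gt and end with the ag of the intron, and miR-877-5p starts at its first base. The mature miR-451a runs into the loop of Mir451. Tags starting at 65 bases into Mir877 reached its last base, the end of the intron, and had 16 counts over the 9 libraries.

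The arm that was counted was 1 of 2 in 3 of the 4 hairpins. miR-320 gave 2973 counts, all from the 3p arm, miR-484 gave 11791 and miR-451a 1544, all from the 5p arm, and miR-877 gave 415 counts from the 5p arm (63.3%) and 241 from the 3p arm. By mean level over the 9 libraries, miR-484-5p ranked 51st and miR-320-3p 92nd of the 742 arms or names, miR-877-5p 191st and miR-877-3p 215th. miR-451a-5p ranked 121st over all libraries but 465th in control cells. Levels are given in CPM scaled by edgeR's TMM factors, on which a count of 0 allows a level of up to 3 counts, or 6.73 to 20.1 CPM by library.

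miR-320-3p, a capped-hairpin miRNA of broad expression, had 1726, 1195 and 1153 CPM in the control libraries. With L-Tyr it had 1785, 1356 and 1385 CPM, and with BrdU 958, 765 and 1547 CPM. The 3 groups overlapped, and BrdU replicates 1 and 2 were the lowest of the 9 libraries. The means were 1358 ± 319 CPM in control cells (SD, n = 3), 1509 ± 239.6 with L-Tyr and 1089.9 ± 407 with BrdU.

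miR-484-5p, the other short-hairpin miRNA and the most abundant of the arms, had 4421, 4958 and 3332 CPM in control cells. It had 5562, 2861 and 5409 CPM with L-Tyr and 7207, 4929.9 and 6681 CPM with BrdU. BrdU replicates 1 and 3 were above all others, and BrdU replicate 2 lay within the control range. The means were 4237 ± 828 CPM (SD, n = 3), 4611 ± 1517 and 6272 ± 1192 CPM.

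miR-877-5p, the strand at the 5′ splice site, had 331, 143.5 and 35.2 CPM in control cells, 181, 258 and 341 CPM with L-Tyr, and 0, 245 and 18.2 CPM with BrdU. The count of 0 was in BrdU replicate 1, where it allows up to 17.3 CPM. Libraries of 1 group differed by as much as the groups did. miR-877-3p had 85.1, 44.9 and 348 CPM in control cells, 127, 238 and 67.2 CPM with L-Tyr, and 0, 56.3 and 21.8 CPM with BrdU. All 3 BrdU libraries were below all 3 L-Tyr libraries for this arm and overlapped the control range. The counts behind these values were 0 to 109 for the 5p arm and 0 to 79 for the 3p arm.

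miR-451a-5p was at or near the floor in most libraries. Its counts were 0, 2 and 4 in control cells, 2, 65 and 3 with L-Tyr, and 3, 3 and 1462 with BrdU. BrdU replicate 3 held 94.7% of all its counts, at 5308 CPM, and L-Tyr replicate 2 was next at 254 CPM. The other 7 libraries ran from 0 to 17.6 CPM, and both other BrdU libraries, at 17.3 and 6.75 CPM, lay within that range.

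**Figure D1:**
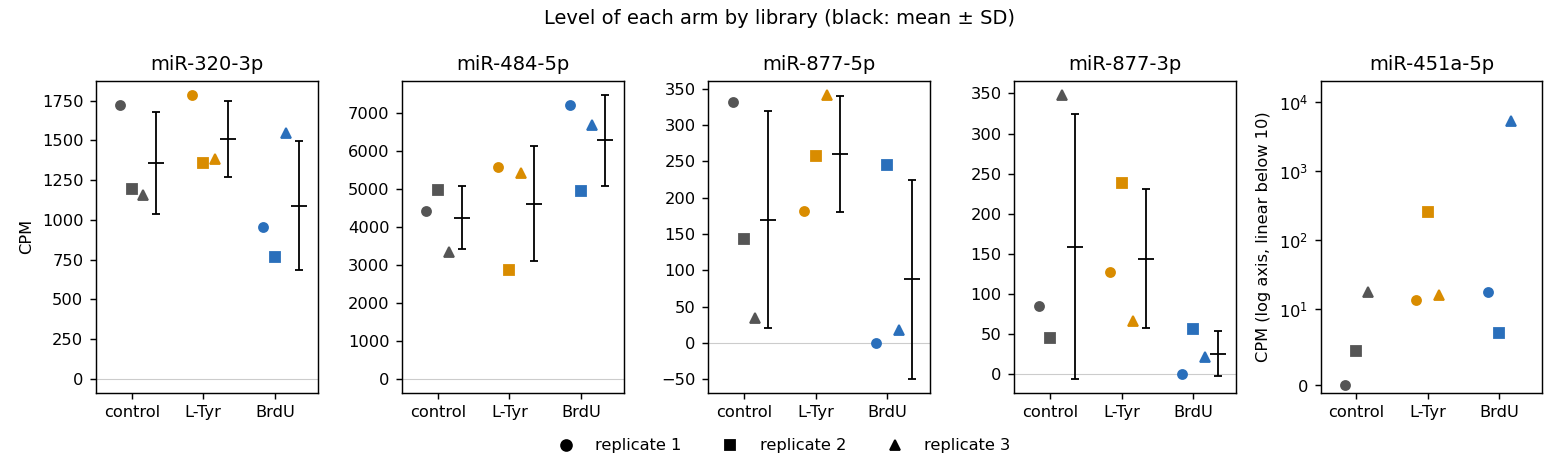
The level of each arm in CPM (y axis; on a log axis, linear below 10, for miR-451a-5p) is plotted for the 3 libraries of each group, with the symbol giving the replicate and the black bar the mean ± SD (not drawn for miR-451a-5p). The groups overlap in nearly every panel, and in the miR-451a-5p panel BrdU replicate 3 stands at 5308 CPM while the other BrdU libraries are at 17.3 and 6.75 CPM.

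The effect of L-Tyr was tested first, with edgeR's quasi-likelihood test over all arms that passed its filter on low counts and Benjamini-Hochberg adjustment. None of the 4 arms that were tested was called at an adjusted p under 0.05, against 2.32% of the 259 arms tested. miR-320-3p had a log2 fold change of 0.11 (SE 0.31, 95% interval -0.60 to 0.81, edgeR adjusted p = 0.939). miR-484-5p had 0.09 (SE 0.31, interval -0.60 to 0.79, edgeR adjusted p = 0.939). miR-877-5p had 0.58 (SE 0.91, interval -1.48 to 2.65, edgeR adjusted p = 0.898) and miR-877-3p -0.20 (SE 1.05, interval -2.58 to 2.18, edgeR adjusted p = 0.976). The intervals of miR-320-3p and miR-484-5p thus reached less than 1 log2 unit either way, and those of both miR-877 arms more than 2 in at least 1 direction. Among all tested arms 35 had an unadjusted p under 0.05, and 0 of the 4 were among them; DESeq2's Wald test also called 0 of the 4. miR-451a-5p did not pass the filter in any of the 3 comparisons.

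With BrdU, compared with control cells, again none of the 4 tested arms was called, against 3.18% of 283 arms. miR-484-5p came nearest, at a log2 fold change of 0.53 (SE 0.24, interval -0.03 to 1.09, unadjusted p = 0.0613 and edgeR adjusted p = 0.296). It was higher in BrdU replicates 1 and 3 than in any control library. miR-320-3p had -0.37 (SE 0.37, interval -1.22 to 0.48, edgeR adjusted p = 0.638). Without BrdU replicate 3, the library that stood apart, miR-320-3p had -0.64 (edgeR adjusted p = 0.519), with both BrdU libraries below all control libraries, as in 48 of the 283 arms (17%). Without control replicate 1 it had -0.075. Leaving out 1 library gave 0.38 to 0.72 for miR-484-5p, with an unadjusted p of 0.0291 (edgeR adjusted p = 0.165) at the highest, without BrdU replicate 2. Without BrdU replicate 3 miR-484-5p had 0.54 (unadjusted p = 0.103, edgeR adjusted p = 0.492). miR-877-3p had -2.57 (SE 1.45, interval -5.93 to 0.79, edgeR adjusted p = 0.378) and miR-877-5p -0.95 (SE 1.57, interval -4.59 to 2.69, edgeR adjusted p = 0.838). Both values moved widely with single libraries. Without BrdU replicate 3 miR-877-3p was -2.36 and miR-877-5p -0.43. miR-877-3p was -1.33 without control replicate 3 and -3.68 without BrdU replicate 2, and miR-877-5p was -0.0036 without control replicate 1 and -4.08 without BrdU replicate 2 (unadjusted p = 0.0617, edgeR adjusted p = 0.244). Of the 54 arms with an unadjusted p under 0.05, 0 were among the 4, and DESeq2's Wald test called 0 of them.

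Between the exposures, BrdU relative to L-Tyr, the calls were 2.38% of 252 arms and 0 of the 4 tested here, with 0 of the 4 at an unadjusted p under 0.05 and 0 called by DESeq2's Wald test. The log2 fold changes were 0.51 for miR-484-5p (SE 0.33, interval -0.24 to 1.26, edgeR adjusted p = 0.587), -0.39 for miR-320-3p (SE 0.40, interval -1.30 to 0.53, edgeR adjusted p = 0.864), -2.31 for miR-877-3p (SE 1.48, interval -5.73 to 1.11, edgeR adjusted p = 0.587) and -1.49 for miR-877-5p (SE 1.54, interval -5.04 to 2.06, edgeR adjusted p = 0.867). Without BrdU replicate 2 miR-877-5p was -4.64 (unadjusted p = 0.0492, edgeR adjusted p = 0.351), and without BrdU replicate 1 it was -0.93. For miR-877-3p leaving out 1 library gave -3.54 to -1.80, for miR-484-5p 0.17 (without L-Tyr replicate 2) to 0.66, and for miR-320-3p -0.78 (without BrdU replicate 3) to -0.20 (without BrdU replicate 2). This comparison shares its BrdU libraries with the previous one and its L-Tyr libraries with the first. The levels of miR-877-3p, whose BrdU libraries were all below its L-Tyr libraries, gave an exact two-sided permutation p of 0.1, the smallest that 3 against 3 allows, and 8.73% of the 252 arms had groups apart in that direction. The other 14 comparisons of an arm between 2 groups had overlapping libraries on this scale, while groups were apart in either direction in 18.9% of all tested arms for L-Tyr and 27.9% for BrdU relative to control cells, and 20.6% between the exposures. With CPM of the total count, miR-320-3p was lower in every BrdU library than in every L-Tyr library as well (means of 990.1 and 1611 CPM, exact p = 0.1), as were 10.3% of the 252 arms. Without BrdU replicate 3 it was also apart on the TMM scale (861 and 1509 CPM, exact p = 0.2), as were 13.9%.

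**Figure D2:**
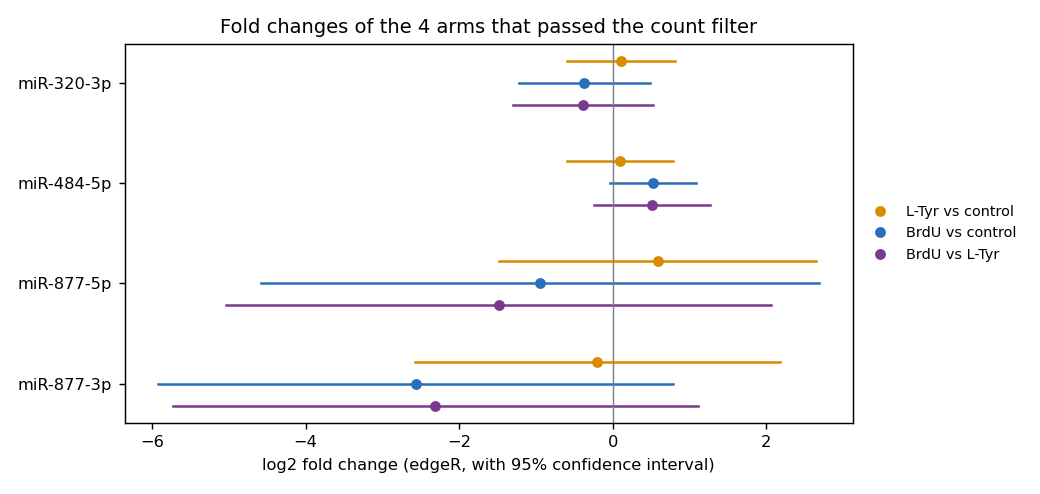
The log2 fold change (x axis, with its 95% interval as a line) of the 4 arms that passed the count filter is plotted for the 3 comparisons. Every interval crosses 0, and those of miR-320-3p and miR-484-5p are far narrower than those of the miR-877 arms, which had at most 109 counts in a library.

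miR-451a-5p, untested after the filter, differed between groups through 2 libraries, BrdU replicate 3 and L-Tyr replicate 2, which held 65 of the 70 L-Tyr counts. The BrdU mean was 1777 CPM with replicate 3 and 12.0 CPM (n = 2) without it, against 7.36 ± 9.15 CPM in control cells (SD, n = 3) and 94.3 ± 138 with L-Tyr. The exact two-sided permutation p was 0.3 for BrdU against control cells, and the groups overlapped. With no filter on low counts, edgeR called miR-451a-5p in BrdU relative to control cells (log2 fold change 7.89, adjusted p = 1.3e-21) and relative to L-Tyr (4.38, adjusted p = 7.8e-07), where 1462 of its 1468 BrdU counts were in replicate 3. Among arms with a mean count of at least 50 it was not called (adjusted p = 0.171 and 0.399).

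Several markers of other cells were highest in the same library as miR-451a-5p, and others were not. miR-144-3p, made from the same transcript as miR-451a, had 486 counts in BrdU replicate 3, 10 in L-Tyr replicate 2, 12 and 6 in BrdU replicates 1 and 2, and 0 in the other 5 libraries. Its level in BrdU replicate 3 was 25.5 times that of the next library, and that of miR-451a-5p 20.9 times. The erythroid list (miR-144, miR-486a and miR-486b) summed to 0 CPM in all 3 control libraries, to 0 to 246 CPM with L-Tyr and to 67.5 to 2200.2 CPM with BrdU. It was 571 CPM in BrdU replicate 1, where miR-451a-5p had 17.3 CPM. In BrdU replicate 3 miR-144-3p, the cluster partner of miR-451a, made 1765 CPM of the list. miR-486a-5p and miR-486b-5p had 156 and 145 CPM there, below their 237 and 265 CPM in BrdU replicate 1. The leukocyte list (miR-142a, miR-223, miR-150 and miR-155) ran from 0 to 70.4 CPM outside BrdU replicate 3 and was 1529 CPM in it, with miR-150 and miR-155 at 0 there. Endothelial miR-126a was 7385 CPM in that library and 61.6 to 270.01 CPM elsewhere. The stromal list without miR-10b (miR-143, miR-145a, 3 miR-199 loci and miR-214) was 273868 CPM there and 1910.5 to 7583 CPM elsewhere, with its second highest value in L-Tyr replicate 2. Of these sums miR-143-3p alone made 268262 CPM in BrdU replicate 3 and 6817 CPM in L-Tyr replicate 2. The 3p arms of the miR-199 loci had 690 to 846 CPM in BrdU replicate 3, 188 to 281 CPM in L-Tyr replicate 2 and 225 to 449 CPM in control cells. miR-10b, the remaining stromal marker, had 9447 to 16366 CPM of its 5p arm over the 9 libraries, with 9839 CPM in BrdU replicate 3. Its 3p arm had 418 CPM in BrdU replicate 3 and 0 to 315 CPM elsewhere. Hepatic miR-122 had 20 counts in L-Tyr replicate 2, 6 in BrdU replicate 3 and 0 in the others. The part of other cells or of another RNA source in the miR-451a-5p counts was not tested, and in bulk RNA more cells of a type and more RNA per cell cannot be told apart.

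**Figure D3:**
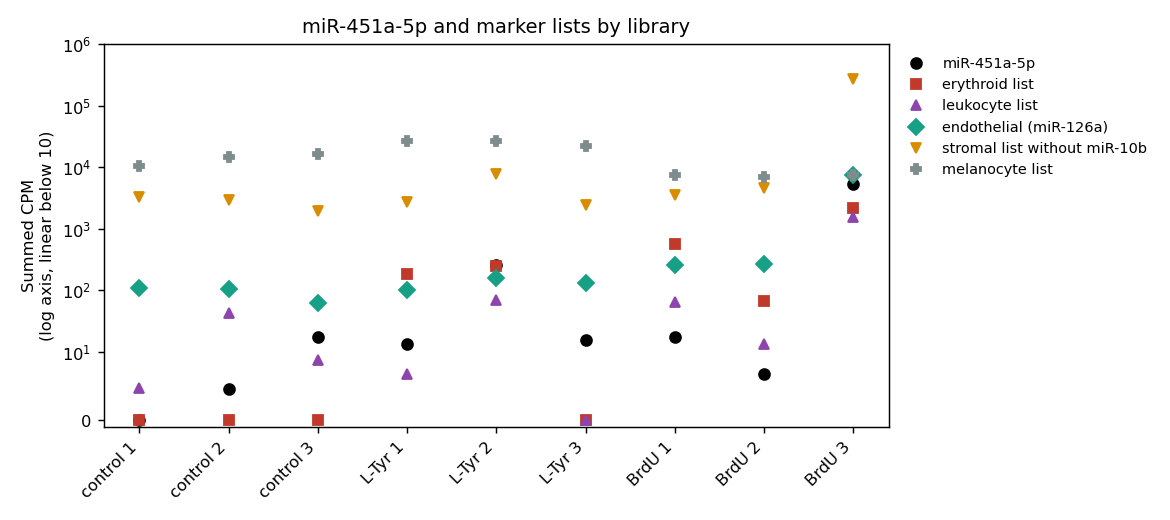
The summed CPM (y axis, log, linear below 10) of miR-451a-5p and of 5 marker lists is plotted for each of the 9 libraries. In BrdU replicate 3 the erythroid, leukocyte, endothelial and stromal lists are at their highest together with miR-451a-5p, at 5308 CPM, and the melanocyte list is not. There miR-144-3p makes 1765 CPM of the erythroid list and miR-143-3p 268262 CPM of the stromal list.

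The tags of each arm began at several bases, which matters because the start sets the seed. Starts are counted from 0 at the first base of the hairpin. No tag was longer than 20 nt, so full-length miR-484, miR-451a and miR-877-3p add nothing to the shares at their RefSeq starts. How far this limit changed the shares was not tested. In miR-484-5p, the 7 starts ran from 4 to 10, and 11.2% of all counts began at 4, the RefSeq start, while 32.8% began at 6, the commonest. Over the 147 arms with a mean count of 50 or more and a RefSeq start, the median share at that start was 25.05%, and 45 arms had a lower share than miR-484-5p. In miR-320-3p, 27.5% of counts began at 47 and 33.7% at 49, the commonest of 5 starts. In miR-451a-5p, 58.5% began at 16, the RefSeq start; 829 of these 904 counts came from BrdU replicate 3, where the share was 56.7%, and L-Tyr replicate 2 had 98.5% of 65 counts at that start. In miR-877-5p 68.7% began at 0, the first base of the intron, and in miR-877-3p 41.5% began at 62, the RefSeq start, and 51.9% at 64.

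The share of the commonest start did not separate the groups. For miR-484-5p, start 6 held 39.5%, 26.9% and 32.0% of the counts in control cells, 47.6%, 47.3% and 31.9% with L-Tyr, and 45.8%, 24.7% and 25.7% with BrdU. The mean differed by 9.49 percentage points between L-Tyr and control cells (exact two-sided permutation p = 0.3) and by -0.72 points between BrdU and control cells (exact p = 0.9). For miR-320-3p, start 49 held 35.9%, 24.8% and 38.2% in control cells, 64.7%, 37.5% and 24.6% with L-Tyr, and 40.4%, 38.5% and 16.9% with BrdU. The exact p was 0.7 for L-Tyr and 1.0 for BrdU relative to control cells. For miR-877-5p a share could be given in 2 control and 3 L-Tyr libraries, and the mean was 80.8% against 51.3% (exact p = 0.6). The difference of -29.5 points was -3.82 without L-Tyr replicate 3 and -52.0 without L-Tyr replicate 1, where the groups were apart at 2 against 2 libraries (exact p = 0.333, the smallest possible). Over all arms with enough counts, groups were apart in 14.2%, 11.7% and 9.92% in the 3 comparisons, and for the members in 0 of 7.

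Among the 11 single starts that held 5% or more of miR-320-3p or miR-484-5p, a start separated groups in 1 of 11 comparisons for L-Tyr and 1 of 11 for BrdU relative to control cells, and in 2 of 11 between the exposures. Over all arms such starts did so in 13.9%, 13.0% and 10.7%, so the counts here were near the background. At start 51 of miR-320-3p, the shares were 18.9%, 18.8% and 6.11% in control cells, 0%, 0.288% and 0% with L-Tyr, and 9.04%, 7.65% and 38.7% with BrdU. This start had 1 count in all L-Tyr libraries together, against 16 to 100 in each control library. The difference from control cells was -14.5 points (exact two-sided permutation p = 0.1, the smallest possible), and 9.51% of 610 starts of all arms were lower with L-Tyr in every library. Start 7 of miR-484-5p had a mean share of 21.5% ± 4.30 with BrdU (SD, n = 3), 13.1% ± 1.98 in control cells and 10.9% ± 4.90 with L-Tyr. BrdU was above both other groups in every library (exact p = 0.1 for each), as were 5.95% of 656 starts relative to control cells and 6.04% of 596 relative to L-Tyr.

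**Figure D4:**
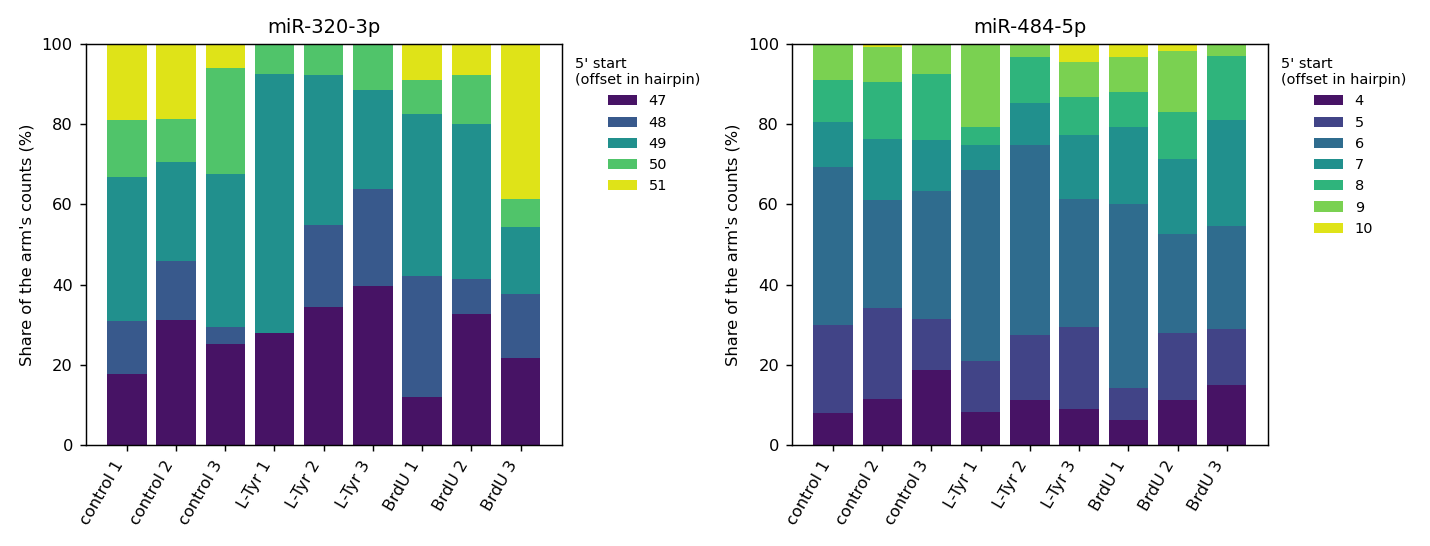
The share of the counts of miR-320-3p and miR-484-5p (y axis, %) that began at each base of the hairpin (colours, counted from 0) is plotted as stacked bars for the 9 libraries. Start 51 of miR-320-3p is nearly missing from the 3 L-Tyr bars and reaches 38.7% in BrdU replicate 3, and the largest share of 1 start of miR-484-5p in a library is 47.6%.

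The 3′ ends of miR-320-3p and miR-484-5p often carried bases that differ from the hairpin. A tag was called untemplated when it matched its hairpin up to its last 1 to 3 bases. Such tags made 16.8% of the tag counts of miR-484-5p and 10.6% of those of miR-320-3p, against a median of 2.29% over all arms with a mean count of 50 or more and a known hairpin. miR-484-5p was exceeded by 7 of those arms and miR-320-3p by 16. In miR-484-5p 840 of these counts ended in T alone, 701 in A alone and 222 in both, 221 held a C or G, and 1 tag with 6 counts had a mismatch further inside. In miR-320-3p 243 ended in T alone, 53 in A alone and 18 held a C or G. No tag of miR-451a-5p was untemplated, and miR-877-3p had 1 such tag, with 5 counts. The part of sequencing errors in these ends was not tested.

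By library, the untemplated share of miR-320-3p was 6.58%, 6.00% and 14.9% in control cells, 3.38%, 1.73% and 11.6% with L-Tyr, and 33.1%, 15.6% and 15.3% with BrdU. Every BrdU library was above every library of the other groups, though BrdU replicates 2 and 3 were close to control replicate 3. The mean was 12.2 percentage points higher with BrdU than in control cells (exact two-sided permutation p = 0.1, the smallest possible) and 15.8 points higher than with L-Tyr (exact p = 0.1). Groups were apart in that direction in 4.1% of 122 arms and in 3.64% of 110 arms. Without BrdU replicate 1 the difference from control cells was 6.27 points. For miR-484-5p the shares were 12.7%, 16.9% and 15.7% in control cells, 15.9%, 9.43% and 24.9% with L-Tyr, and 16.3%, 19.9% and 14.7% with BrdU, which overlapped. The measure of untemplated ends and the look at single starts were chosen after the data had been seen.

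**Figure D5:**
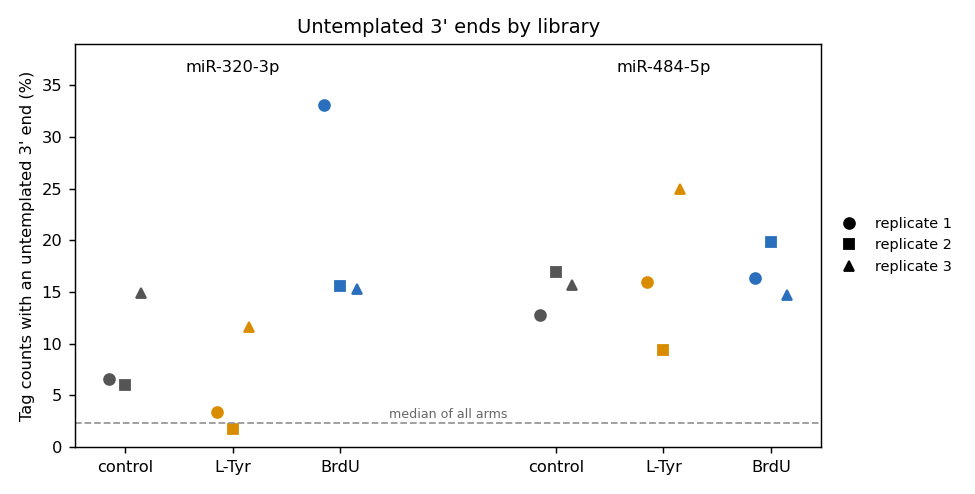
The share of tag counts with an untemplated 3′ end (y axis, %) is plotted for miR-320-3p and miR-484-5p in the 3 libraries of each group, with the median of all arms, 2.29%, as a dashed line. The 3 BrdU libraries of miR-320-3p lie between 15.3% and 33.1%, above the control and L-Tyr libraries, and the groups of miR-484-5p overlap.

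The arms whose log2 CPM followed each member most closely were found among 172 other arms, over 9 libraries that share their group and depth, and are given as a description. miR-484-5p was closest to miR-335-3p (Pearson r = 0.77), miR-1839-5p (0.77) and miR-125b-2-5p (0.65). miR-1839, related to a small nucleolar RNA, is itself thought to skip Drosha, and its 5p arm had 331, 397 and 339 CPM in control cells, 376, 313 and 506 with L-Tyr and 421, 398 and 454 with BrdU. miR-320-3p was closest to miR-7003-3p (0.82), miR-199b-3p (0.69) and miR-199a-1-3p (0.68). miR-451a-5p was closest to miR-379-5p (0.97), miR-143-3p (0.93) and miR-144-3p (0.90). The latter order rests on BrdU replicate 3, in which all 4 were highest. Without it miR-379-5p remained first (r = 0.90), with 46.9 CPM in L-Tyr replicate 2 and at most 8.80 CPM in the other 7 libraries.

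Other miRNAs known or thought to bypass Drosha or Dicer were sparse in these cells. The list held the mirtrons miR-1224, miR-702, miR-1981 and miR-3102, the short hairpins of miR-344, and the snoRNA-related miR-1839 and miR-664. Together they had 11 arms with a count, none of them from miR-344, and summed to 563 to 902 CPM in control cells, 894 to 1073 CPM with L-Tyr and 623 to 785 CPM with BrdU. Of these arms 2, 3 and 3 could be tested in the 3 comparisons, and 0 were called by edgeR, against 2.32%, 3.18% and 2.38% of all arms, with 0 at an unadjusted p under 0.05 and 0 called by DESeq2's Wald test. The mirtron miR-1981-3p had 66.2, 202 and 176 CPM in control cells, 302, 348 and 170 CPM with L-Tyr and 259.7, 106 and 69.0 CPM with BrdU. Its log2 fold change was 0.83 with L-Tyr (SE 0.78, edgeR adjusted p = 0.741), -0.05 with BrdU (SE 0.85, adjusted p = 0.974) and -0.83 between the exposures (SE 0.91, adjusted p = 0.889). miR-1839-5p had 0.14 (SE 0.56, adjusted p = 0.950), 0.22 (SE 0.43, adjusted p = 0.845) and 0.16 (SE 0.60, adjusted p = 0.980). The third tested arm was miR-1839-3p for BrdU relative to control cells, at -2.29 (SE 2.14, edgeR adjusted p = 0.605) with counts in 2 control libraries and 1 BrdU library, and miR-664-3p between the exposures, at -3.10 (SE 2.00, edgeR adjusted p = 0.587). miR-1224-5p, miR-702-3p and miR-3102-3p were each counted in 1 library, with 18 counts in BrdU replicate 1, 31 in L-Tyr replicate 3 and 55 in control replicate 3. The other arms were counted in other libraries, miR-702-5p with 25 counts in BrdU replicate 3 and miR-3102-5p with 45 in L-Tyr replicate 2.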

How the data were processed

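Small RNA of 9 B16F1 libraries was sequenced. With the BaseSpace application for small RNA, mm9 and miRBase, the authors made and deposited raw counts per tag or mature name; the submitters' processing notes also name FastQC, MultiQC and DESeq2. The deposited normalized table and the 3 tables of fold changes and p-values were not used. Groups came from the labels. The 180 features of predicted hairpins stayed in the fits.

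Counts summed by hairpin and arm were tested in R 4.3.3 with edgeR 4.0.16 (TMM, filterByExpr, quasi-likelihood F test, Benjamini-Hochberg, 6 libraries per comparison), which was tested on simulated data. DESeq2 1.42.0 was an alternative. Levels and shares were compared by exact permutation tests (scipy 1.17.1, two-sided). A library with under 20 counts in an arm got no share. Likeness was Pearson's r of log2 CPM (prior count 2) among arms with a mean count of 50 or more. Described tags were the commonest of each arm and, in the counts, those with a mean of 10 or more. Intervals and floors cover counting error or spread between samples as stated, and PCR copies were not separated. Same-numbered libraries had correlations of deviations from -0.11 to 0.04. The labels do not say whether the numbers pair them, and the main tests used no pairing. The members, lists and tests were chosen with earlier results of these data known. Alternatives were other scalings, filters, tools, sample sets and tag lengths.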

Additional observations from a re-analysis of the deposited data

How the results depend on the processing

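None of miR-320-3p, miR-484-5p, miR-877-5p and miR-877-3p was called under any alternative. The alternative with single tags was read only for the commonest tag or entry of each arm. Among 197 refitted log2 fold changes 184 kept their direction. Those that changed sign were all for L-Tyr relative to control cells: miR-484-5p was -0.017 without the most abundant arm and -0.033 from its commonest tag alone, miR-877-5p was -0.11 from its commonest entry alone, and miR-877-3p was 0.084 (8.32 CPM as a difference of means) by total count alone. Leaving out each library in turn gave -0.057 to 0.25 for miR-320-3p, -0.11 to 0.32 for miR-484-5p, -0.76 to 1.04 for miR-877-3p and 0.058 to 1.43 for miR-877-5p in that comparison. The cause was not tested. In its own comparisons with DESeq2, the paper lists miR-320-3p as lower with L-Tyr than in control cells. It also lists miR-320-3p and miR-484 as higher with BrdU than with L-Tyr. The average counts it gives for these entries are far below the mean counts of the summed arms here, 330 for miR-320-3p and 1310 for miR-484-5p. Those calls and the ones here thus do not rest on the same counts. For miR-320-3p the main log2 fold changes here had the opposite sign, 0.11 with L-Tyr and -0.39 between the exposures. For miR-484-5p the sign between the exposures was the same, at 0.51. Why those calls differ from the ones here was not tested.

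The number of arms called over the whole table (6 for L-Tyr, 9 for BrdU and 6 between the exposures) moved with the method. Without a filter it was 14, 50 and 30, with DESeq2's Wald test 18, 28 and 12, and with single tags 1, 0 and 2. Scaling by total count gave 3 for BrdU, and all 9 libraries in 1 fit gave 3 between the exposures. Leaving out 1 library gave 0 to 10, 1 to 15 and 0 to 5. With the replicate number as a block the counts were 6, 1 and 0, and the block gave 0.23 for miR-877-3p with L-Tyr. Whether the numbers pair the samples is not given by the labels.

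The difference in miR-451a-5p between BrdU and L-Tyr was 1683 CPM and became -82.3 CPM without BrdU replicate 3. Shares of the commonest start moved within the spread of the libraries. For BrdU relative to control cells the difference at start 6 of miR-484-5p was 6.01 points in tags of 20 nt and -7.59 to 2.94 points when 1 library was left out, and at start 49 of miR-320-3p it was -5.23 to 6.50 points. At that start the range was -1.90 to 18.1 points for L-Tyr and -19.1 to 0.89 points between the exposures. The untemplated share of miR-484-5p ranged from -2.45 to 5.30 points for L-Tyr and from -3.45 to 4.30 points between the exposures, and that of miR-320-3p stayed 6.27 to 15.2 points higher with BrdU than in control cells. Of the 3 arms most like each member, 2 stayed for miR-320-3p without BrdU replicate 3, 2 for miR-484-5p under either alternative and 1 for miR-451a-5p under either. The miR-877 arms had at most 109 counts in a library, and all values of the members come from reads of 20 nt or less.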
